A study of Mus musculus with 8 samples.

Results

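The genes of the cytosolic translation initiation factors (symbols beginning with Eif) and elongation factors (symbols beginning with Eef) were followed in neuro-intermediate lobes of mouse pituitaries. Members were all genes whose symbol starts with Eif or Eef and a digit, leaving out the eIF2 alpha kinases (Eif2ak genes) and the named pseudogenes. This gave 62 of the 48526 genes in the count table, of which 61 are annotated as protein coding. Eif2c5, the remaining entry, is annotated as a long noncoding RNA and had no count in any library. A filter on a mean normalized count above 20 left 59 members for testing. Eif2c5, Eif4e1b and Eif4ebp3 were not tested, with 0, 0 and 18 counts in all 8 libraries together.

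Initiation factors load the initiator tRNA onto the small ribosomal subunit, recruit the capped mRNA, scan to the start codon and release the subunits for joining. Elongation factors then deliver aminoacyl tRNAs and move the ribosome along the mRNA codon by codon. Cells that secrete large amounts of a peptide hormone, such as the POMC-producing melanotropes of the intermediate lobe, depend on a large capacity for these steps.

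RNA-seq was done on 8 libraries of C57B6 mice, each made from a pool of 5 neuro-intermediate lobes, in 4 groups of 2 libraries. WT mice carried no transgene. ACreb3l2 mice expressed an acidic dominant negative form of Creb3l2, AXBP1 mice the like form of XBP1, and ACreb3l2/AXBP1 mice carried both transgenes. Both transgenes were driven by the rat POMC promoter, so only POMC cells of the lobe should make the blocking proteins. The comparisons address whether blocking either bZIP transcription factor, or both, alters the transcripts of the translation machinery. Results for each transgene were shown by the study for a single mouse line, and the methods give the mice as males aged 3 months. All values are relative to the RNA of the same library, so a change in total RNA per lobe is not seen in them. The labels name the cells as melanotropes, while the sampled tissue also holds the posterior lobe.

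Library totals ran from 28256086 to 37988912 counts, and 1.59% to 1.75% of each library fell on the 62 members. All 7 melanotrope markers examined, Pomc among them, were detected. Markers of pituicytes, endothelium, macrophages, fibroblasts and red cells were also present in every library. Levels are given in FPKM (fragments scaled for transcript length and for sequencing depth, which allows levels of different genes to be compared). The 6 anterior lobe markers, growth hormone (Gh) among them, summed to 5361 and 7819 FPKM in WT, 5618 and 4128 with ACreb3l2, 2379 and 2472 with AXBP1, and 6693 and 3702 with both transgenes. Both AXBP1 libraries thus lay below all others, with a median log2 change of -0.61 over these markers against WT and none called by edgeR, and the part of this difference in the AXBP1 results was not tested. In bulk tissue, fewer cells of a type and less RNA per cell cannot be told apart.

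The genes of the blocked factors gave no clear check of the labels. Each transgene holds coding sequence of its factor from the leucine zipper on, so transgene reads can fall on that gene. By RT-qPCR, the study selected mouse lines with more transgene mRNA than mRNA of the endogenous factor. Creb3l2 was not above WT where its transgene was present, at 28682 and 28195 normalized counts in the WT pair, against 27212 and 26775 with ACreb3l2, 18837 and 22833 with AXBP1 and 21205 and 14044 with both transgenes. It fell with both (log2 change -0.69, edgeR adjusted p = 0.0428) and changed by -0.08 with ACreb3l2 (edgeR adjusted p = 0.874). Xbp1 was at 11877 and 13436 in the WT pair, against 9155 and 9205 with ACreb3l2, 12448 and 13850 with AXBP1 and 17639 and 12854 with both transgenes. Its log2 changes of -0.46, 0.06 and 0.27 had edgeR adjusted p of 0.127, 0.900 and 0.227. Against WT, a higher count was thus not seen for Creb3l2 in either group with its transgene, nor called for Xbp1. Against the other single transgene, both ACreb3l2 libraries had more Creb3l2 than both AXBP1 libraries, and both AXBP1 libraries more Xbp1 than both ACreb3l2 libraries. In each case the lower group lay below both WT libraries, and the group with the transgene showed no called rise. All groups are named here as labelled.

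Some libraries stood apart for the translation factor genes. Among the 59 members tested, 32 had their highest normalized count in WT replicate 2 and 28 their lowest in ACreb3l2/AXBP1 replicate 2. These libraries also held the highest and the lowest summed level of the melanotrope markers, 144100 FPKM in WT replicate 2 and 61570 FPKM in ACreb3l2/AXBP1 replicate 2. Pomc alone made up 141200 and 59960 FPKM of these sums. The other WT library summed to 99790 FPKM and the other ACreb3l2/AXBP1 library to 73860 FPKM. Of the 7 melanotrope markers, Tbx19 and Scg2 fell in ACreb3l2/AXBP1 against WT, by 0.88 and 0.57 on the log2 scale (edgeR adjusted p = 0.0245 and 0.0253). Pomc, at 3460466 and 5180565 normalized counts in WT and 2766163 and 2049870 in ACreb3l2/AXBP1, did not pass (log2 change -0.84, edgeR adjusted p = 0.0614). Pcsk2 (-0.66), Drd2 (-0.19), Pax7 (-0.08) and Pcsk1n (-0.04) were not called either (edgeR adjusted p from 0.162 to 0.828). Markers of other cells lay above WT in the same group, with median log2 changes of 0.34 for 6 pituicyte, 0.46 for 5 endothelial and 0.31 for 6 fibroblast markers. Of these, Aqp4 of the pituicyte list was called by edgeR (log2 change 0.51, adjusted p = 0.0464). With ACreb3l2 alone these medians were 0.47, -0.03 and -0.04, and with AXBP1 alone 0.07, 0.42 and 0.37, with none of the markers called by edgeR. Medians of the macrophage and red cell lists were 0.15 and 0.45 with ACreb3l2, 0.01 and -0.19 with AXBP1, and -0.03 and -0.24 with both transgenes, also with no edgeR call. The part of these marker and library differences in the results that follow was not tested, and results are given with and without the libraries concerned.

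**Figure D1:**
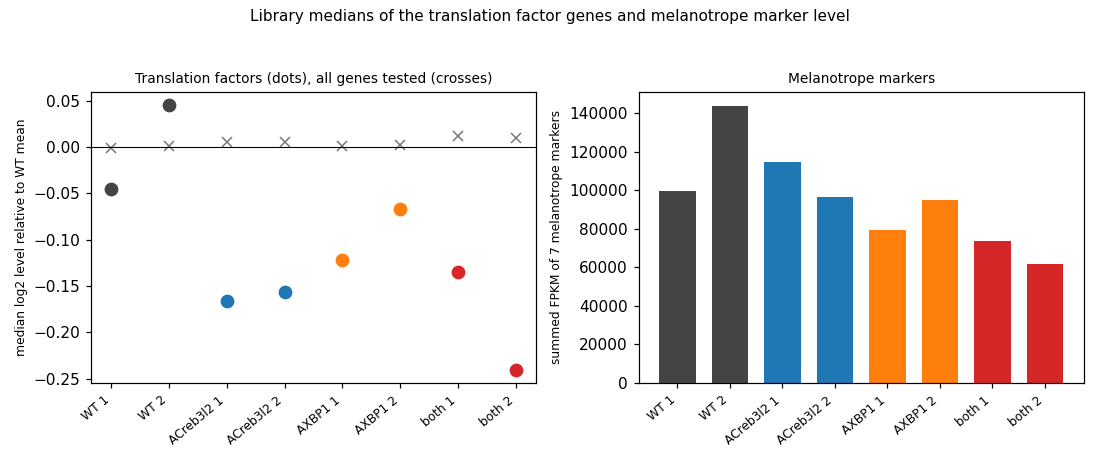
Left, for each library, the median over the 59 translation factor genes tested of the log2 level relative to the WT mean (dots) and the same over all 15580 genes tested (crosses). Right, summed FPKM of 7 melanotrope markers per library, most of it Pomc, with ACreb3l2/AXBP1 written as both. The translation factor median was 0.05 in WT replicate 2 and -0.24 in ACreb3l2/AXBP1 replicate 2, the ends of its range.

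In WT lobes the members spanned a wide range of levels. Eef1a1, which encodes the GTPase eEF1A that carries aminoacyl tRNA to the ribosome, had the highest level at 3184 ± 118 FPKM (SD, n = 2). Eef2, the translocation factor, followed at 888 ± 84.1 FPKM, and Eef1b2, a subunit of the exchange factor that reloads eEF1A with GTP, at 476 ± 1.38 FPKM. The highest initiation factor was the helicase gene Eif4a2 at 364 ± 41.4 FPKM, whose gap to Eef1b2 was larger than the spread of either. Eif5a at 205 ± 17.4 FPKM and Eif4g2 at 204 ± 13.3 FPKM, next in order among the initiation factors, did not differ beyond their spread. Subunits of eIF3 had a median WT level of 75.9 FPKM, those of eIF2B 24.6 FPKM and the eIF2 group 17.6 FPKM. The cap-binding inhibitor Eif4ebp1 stood near the low end, at 10.1 ± 4.74 FPKM.

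Against WT, the median change over the translation factor genes was below 0 in all 3 transgenic groups, and most calls came with both transgenes. The summed share of counts in the members, which the most abundant genes such as Eef1a1 weigh on, took another course. It was 1.706% and 1.715% in the WT pair, against 1.593% and 1.611% with ACreb3l2, 1.728% and 1.753% with AXBP1 and 1.667% and 1.709% with both transgenes, so that AXBP1 lay above WT. A gene is said to be called, or to have risen or fallen, when its Benjamini-Hochberg adjusted p over all 15580 genes was under 0.05 in edgeR's quasi-likelihood test. In ACreb3l2/AXBP1, 12 of 59 members fell, where 10.1% of all genes tested were called and 6.99% were called lower. Against 3.06% of all genes called higher, no member was. In ACreb3l2, 1 member fell and none rose, beside 3.04% of all genes called, 2.5% lower and 0.539% higher. Unadjusted p were under 0.05 for 20 members in ACreb3l2 (16.8% of all genes) and 25 in ACreb3l2/AXBP1 (29.7% of all genes). In AXBP1 no member was called by edgeR, as for all genes (0.0%), while 13 members had an unadjusted p under 0.05, against 9.97% of all genes. DESeq2 called 5 members in ACreb3l2, 1 (Eif4ebp1) in AXBP1 and 14 in ACreb3l2/AXBP1, where these included all 12 edgeR calls. The shares of all genes that DESeq2 called were 4.85%, 0.513% and 13.4%.

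With ACreb3l2 the members had a median log2 change of -0.16, with AXBP1 one of -0.10 and with both transgenes one of -0.20, beside medians of 0.01, 0.00 and 0.01 over all genes tested. Members with a log2 change below 0 numbered 50, 42 and 46 of 59, where 48.2%, 49.7% and 48.3% of all genes lay below 0. Both ACreb3l2/AXBP1 libraries lay below both WT libraries for 36 members (61.0%, against 28.7% of all genes) and above them for 4 (6.78%, against 29.6%). In ACreb3l2 37 members lay below both WT libraries and 3 above (23.2% and 22.3% of all genes), and in AXBP1 33 below and 6 above (23.8% and 22.3% of all genes). With counts scaled by library size alone, the ACreb3l2/AXBP1 numbers became 20 below and 14 above, where 15.4% of all genes lay below and 47.9% above. Those of ACreb3l2 became 29 below and 8 above (15.6% and 31.5% of all genes), and those of AXBP1 25 below and 10 above (15.6% and 29.1%). That scaling moved the median of all genes in ACreb3l2/AXBP1 to 0.17 and the median of the members to -0.04, so the distance between them, -0.21, was the same as with the main scaling. The 3 comparisons share the WT libraries and are not independent of one another.

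**Figure D2:**
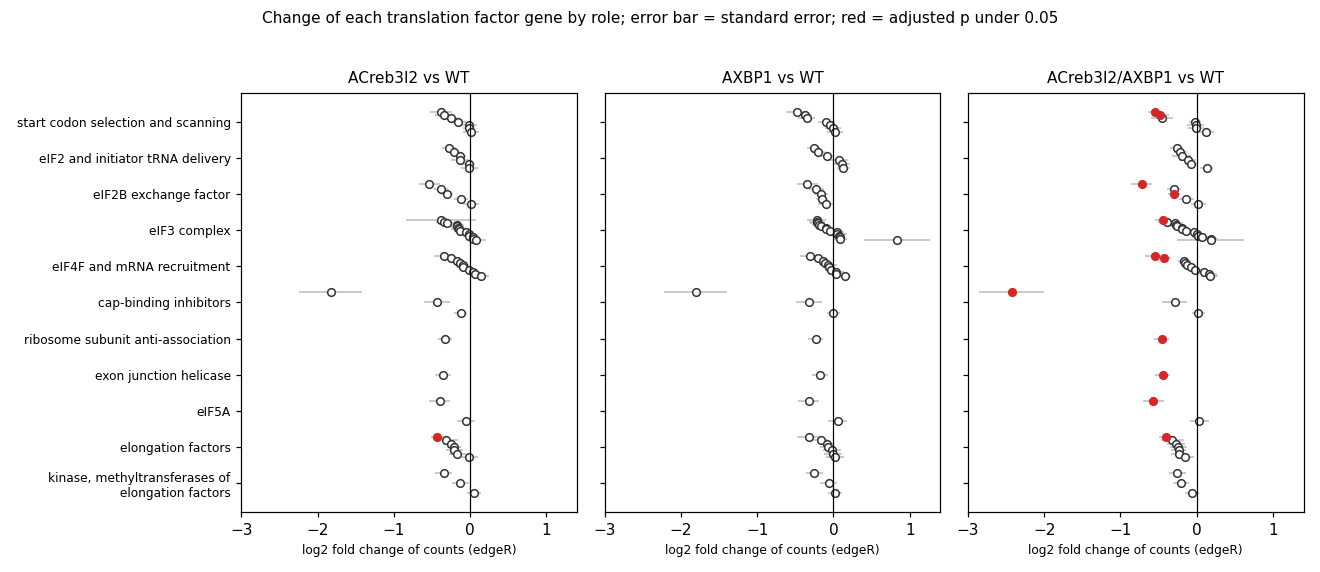
Log2 fold change against WT of each of the 59 translation factor genes tested, in rows by role, for the 3 transgenic groups, with standard errors as bars and called genes in red. In ACreb3l2/AXBP1 12 genes are red, all left of 0, with Eif4ebp1 the farthest out at -2.43, and in ACreb3l2 Eef1b2 is the red point.

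The calls in ACreb3l2/AXBP1 depended on single libraries. Without ACreb3l2/AXBP1 replicate 2 none of the 59 members was called, though 14 had an unadjusted p under 0.05 and the share of all genes called also dropped, to 1.39%. The 12 genes were still lower without it, with log2 changes from -2.25 (Eif4ebp1) to -0.22 (Eif2b5). Leaving out WT replicate 2 left 2 calls, Eif1a and Eif4ebp1, with 2.26% of all genes called. Leaving out AXBP1 replicate 1 or AXBP1 replicate 2 gave 5 calls, with 5.38% and 5.36% of all genes. Without both WT replicate 2 and ACreb3l2/AXBP1 replicate 2 the count was 0 (11 with an unadjusted p under 0.05, and 0.302% of all genes called), with a median of -0.10.

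**Figure D3:**
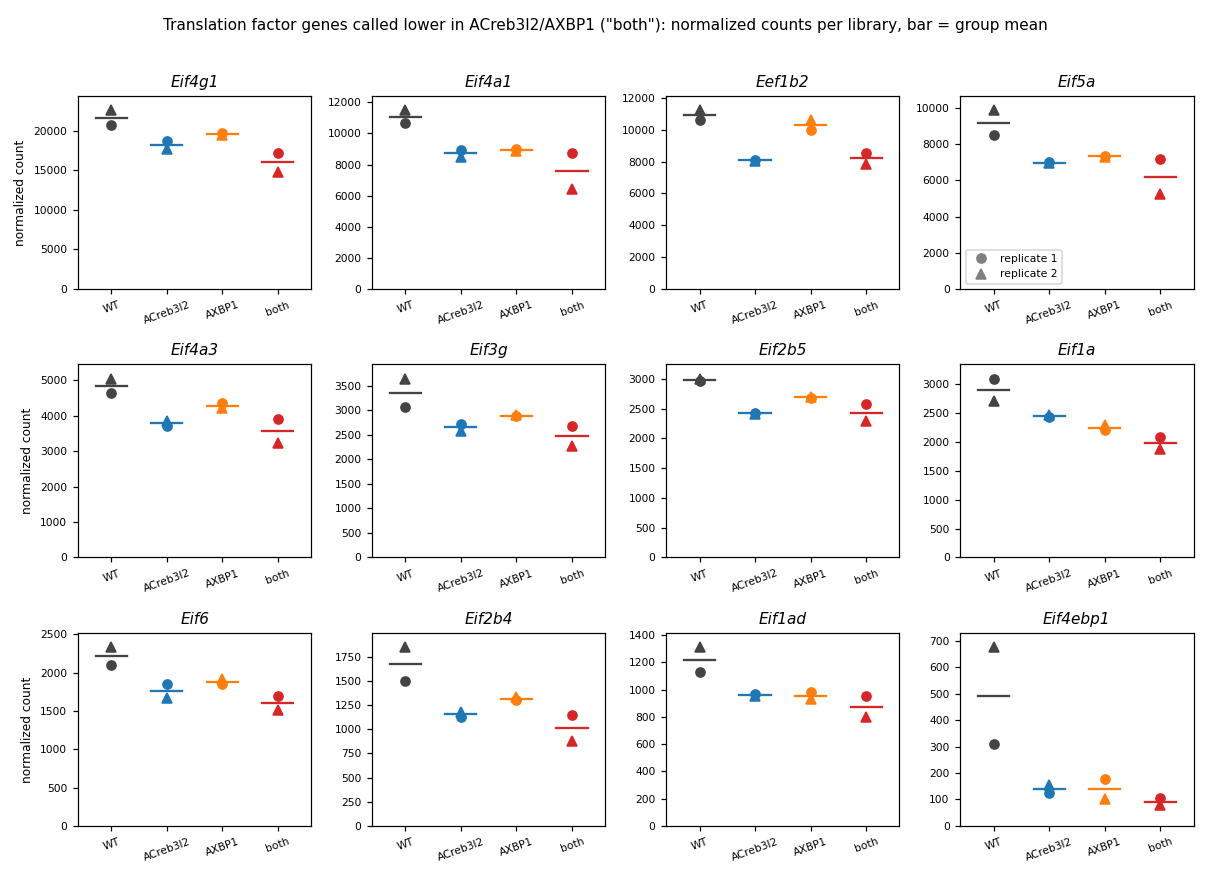
Normalized counts per library for the 12 translation factor genes called lower in ACreb3l2/AXBP1 (written as both) against WT, by group, with bars at the group means and vertical axes from 0. In all 12 panels both ACreb3l2/AXBP1 libraries lie below both WT libraries, and replicate 2 is the lower of them.

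Of the 7 genes for start codon selection and scanning, Eif1a and Eif1ad fell in ACreb3l2/AXBP1. Eif1a (chr18:46597701-46616456, + strand, mm10) encodes eIF1A, which helps the scanning small subunit recognise the start codon. It had 3092 and 2704 normalized counts in the WT pair, against 2422 and 2469 with ACreb3l2, 2199 and 2288 with AXBP1 and 2083 and 1878 with both transgenes. All 6 transgenic libraries lay below both WT libraries, and the level with both transgenes was 68.3% of WT (log2 change -0.55, SE 0.09, edgeR adjusted p = 0.00807). Eif1ad (chr19:5366741-5371526, + strand), which carries an eIF1A-like domain, went from 1129 and 1312 in WT to 954 and 798 in ACreb3l2/AXBP1, 71.8% of WT (edgeR adjusted p = 0.0303). An exon of the opposite-strand gene Banf1 overlaps it, and 15.1% of its 50-base stretches also occur in Banf1.

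Other scanning factors did not pass. Eif1, for the start codon fidelity factor eIF1, had 1582 and 2213 normalized counts in WT and between 1293 and 1524 in the 6 transgenic libraries. Its libraries did not overlap between WT and any transgenic group, but its log2 changes of -0.38, -0.47 and -0.45, for ACreb3l2, AXBP1 and both transgenes, had edgeR adjusted p of 0.229, 0.474 and 0.0751. The WT libraries differed more from each other than the transgenic libraries did, and 31.6% of its 50-base stretches occur in other genes. Eif1b, its close relative, ranged from 1962 to 2133 over all 8 libraries and Eif5, the GTPase activator of eIF2, from 4693 to 5883. Groups overlapped for both genes, except that both AXBP1 libraries lay below both WT libraries for Eif5 (log2 change -0.10, edgeR adjusted p = 0.765).

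Delivery of the initiator tRNA depends on eIF2, and no gene of this group was called. Eif2s2, the beta subunit, had 2383 and 2524 normalized counts in WT and 1918 to 2177 in the transgenic libraries, lower in 6 of 6, with edgeR adjusted p from 0.0778 to 0.478. Eif2a, which despite its symbol encodes a separate tRNA-binding protein, had one of the larger positive values in AXBP1, with 2037 and 2173 in WT against 2317 and 2293 (log2 change 0.13, edgeR adjusted p = 0.585). The gamma subunit is encoded on both sex chromosomes. Eif2s3x ranged from 1083 to 1297 and the Y-linked Eif2s3y from 839 to 1033 normalized counts, and both were counted in every pool of these male lobes. Reads of Eif2s3x are uncertain, since 36.2% of its 50-base stretches are shared with other genes.

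The exchange factor eIF2B, which returns eIF2 to its GTP-bound state and is the step that stress-activated eIF2 alpha kinases inhibit, had 2 of 5 subunits called. Eif2b4 (chr5:31187558-31193430, - strand), the delta subunit, had 1495 and 1848 normalized counts in the WT pair, against 1126 and 1180 with ACreb3l2, 1303 and 1330 with AXBP1 and 1151 and 881 with both transgenes. Every transgenic library lay below WT, and the level with both transgenes was 60.8% of WT (log2 change -0.72, SE 0.14, edgeR adjusted p = 0.0142). An exon of the opposite-strand gene Snx17 overlaps it, and strand use in counting was not stated. In ACreb3l2 alone its change of -0.54 had an edgeR adjusted p of 0.0755.

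Eif2b5 (chr16:20498817-20509323, + strand), the catalytic epsilon subunit, fell less, and this call held in 5 of 18 alternatives. It had 2956 and 3000 in the WT pair, against 2430 and 2405 with ACreb3l2, 2683 and 2690 with AXBP1 and 2568 and 2286 with both transgenes (81.5% of WT, edgeR adjusted p = 0.0476). Eif2b1 was lower by the same log2 amount in ACreb3l2/AXBP1 (-0.30) and by 0.38 in ACreb3l2, with edgeR adjusted p of 0.0738 and 0.0643. Eif2b2 (log2 change -0.14) and Eif2b3 (0.02) had smaller changes with both transgenes, and 969 to 1123 Eif2b3 counts in ACreb3l2/AXBP1 overlapped the 1000 and 1064 of WT. Within each library the raw count ratio of Eif2b4 to Eif2b3, which no scaling of libraries alters, was 1.5 and 1.74 in WT and 1.03 and 0.91 in ACreb3l2/AXBP1. This pair was not among the fixed related pairs, and its ratio restates the changes of the genes in it.

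The 14 eIF3 genes, which build the scaffold that holds the other factors on the small subunit, gave 1 call. Eif3g (chr9:20894349-20898623, - strand), an RNA-binding subunit, had 3080 and 3646 normalized counts in the WT pair, against 2727 and 2586 with ACreb3l2, 2888 and 2899 with AXBP1 and 2689 and 2276 with both transgenes. This was 73.8% of WT with both transgenes (edgeR adjusted p = 0.0322), with no overlap between WT and any transgenic group. In ACreb3l2/AXBP1 9 of the 14 were below 0 and 5 above, with a median log2 change of -0.17. The subunits with the highest level, Eif3k and Eif3i, changed by -0.20 and -0.26 (edgeR adjusted p = 0.136 and 0.0934).

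Values in the other direction were small or uncertain. Eif3e had 4885 and 4400 in WT and 4969 and 5577 in ACreb3l2/AXBP1 (log2 change 0.18, edgeR adjusted p = 0.212). Eif3j2 gave the highest value in AXBP1 (log2 change 0.84, SE 0.43, edgeR adjusted p = 0.539) from 73.8 and 22.9 normalized counts in WT and 76.1 and 99.3 in AXBP1. It shares 91.8% of its 50-base stretches with other genes, mainly Eif3j1, so its reads cannot be assigned with confidence. Eif3j1 itself held 296 to 359 in all 8 libraries.

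Cap binding and mRNA recruitment run through eIF4F, made of the cap-binding protein eIF4E, the scaffold eIF4G and the helicase eIF4A. Of 10 genes tested here, Eif4a1 and Eif4g1 fell in ACreb3l2/AXBP1. Eif4a1 (chr11:69666936-69672423, - strand) had 10659 and 11484 normalized counts in the WT pair, against 8933 and 8506 with ACreb3l2, 9004 and 8856 with AXBP1 and 8730 and 6442 with both transgenes. All 6 transgenic libraries were below WT, and the last was the lowest. The level with both transgenes was 68.5% of WT (log2 change -0.55, SE 0.13, edgeR adjusted p = 0.0283), and 33.3% of its 50-base stretches occur in other genes, mostly processed copies.

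Eif4g1 (chr16:20668313-20692884, + strand) had 20667 and 22561 in the WT pair, against 18678 and 17651 with ACreb3l2, 19676 and 19502 with AXBP1 and 17171 and 14791 with both transgenes (73.9% of WT, edgeR adjusted p = 0.0257). Its relative Eif4g2, whose product lacks the eIF4E-binding site, had 23119 and 23143 in WT and 21342 to 22361 in the 6 transgenic libraries, all below WT, with log2 changes from -0.10 to -0.06 and no call. Eif4b, a helper of the helicase, had 14897 and 16556 in WT and 17456 and 17321 in AXBP1 (log2 change 0.15, edgeR adjusted p = 0.585). Eif4e3, a minor cap-binding relative of eIF4E, had 467 and 468 in WT and 482 and 570 in ACreb3l2/AXBP1 (log2 change 0.17, edgeR adjusted p = 0.337). Eif4e itself changed by -0.14 to -0.21 in the 3 groups, with no call.

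The widest difference of all members was in Eif4ebp1 (chr8:27260329-27276674, + strand), which encodes a repressor that binds eIF4E until mTOR phosphorylates it. It had 309 and 676 normalized counts in the WT pair, against 125 and 153 with ACreb3l2, 179 and 101 with AXBP1 and 104 and 79.0 with both transgenes. No transgenic library reached the lower WT library, although the WT libraries themselves differed more than 2-fold. Its level amounted to 28.2% of WT with ACreb3l2, 28.6% with AXBP1 and 18.6% with both. Without WT replicate 2 the log2 changes with the single transgenes went from -1.83 to -1.16 for ACreb3l2 and from -1.81 to -1.14 for AXBP1 (edgeR adjusted p = 0.168 and 0.857). It passed in ACreb3l2/AXBP1 (log2 change -2.43, SE 0.43, edgeR adjusted p = 0.0186) and missed in ACreb3l2 (0.0743) and AXBP1 (0.474). Without WT replicate 2 the change with both transgenes was -1.76 (edgeR adjusted p = 0.0292). The interaction, the change with both transgenes minus the sum of the single changes, was 1.20 with an SE of 0.60 and an edgeR adjusted p of 0.9997.

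The other eIF4E repressors differed from it. Eif4ebp2 had 366 and 531 normalized counts in WT and 326 to 383 in the transgenic libraries, and its change of -0.43 in ACreb3l2 had an edgeR adjusted p of 0.218. Eif4ebp3 was counted 1 to 6 times per library on the normalized scale. Eif4enif1, which carries eIF4E into the nucleus, ranged from 1469 to 1738 with log2 changes from -0.12 to 0.02. The raw count ratio of Eif4ebp1 to Eif4e within a library was 0.101 and 0.243 in the WT pair, against 0.0487 and 0.0557 with ACreb3l2, 0.0702 and 0.0401 with AXBP1 and 0.0378 and 0.0320 with both transgenes. This pair too was not among the fixed related pairs.

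Eif6 and Eif4a3 also fell with both transgenes. Eif6 (chr2:155819832-155826925, - strand), which keeps the large subunit from joining too early, had 2097 and 2334 normalized counts in the WT pair, against 1857 and 1668 with ACreb3l2, 1847 and 1924 with AXBP1 and 1699 and 1519 with both transgenes (72.6% of WT, edgeR adjusted p = 0.0186). Eif4a3 (chr11:119288363-119300089, - strand) belongs to the exon junction complex rather than to initiation. It had 4647 and 5038 in the WT pair, against 3708 and 3852 with ACreb3l2, 4356 and 4206 with AXBP1 and 3896 and 3220 with both transgenes (73.5% of WT, edgeR adjusted p = 0.0242). The opposite-strand gene Gm16098 overlaps an exon of Eif6. For both genes all transgenic libraries lay below both WT libraries.

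Eif5a (chr11:69916714-69921958, - strand) encodes the hypusine-bearing factor that helps ribosomes through difficult peptide bonds. Its normalized counts were 8503 and 9856 in the WT pair, against 6988 and 6929 with ACreb3l2, 7362 and 7289 with AXBP1 and 7169 and 5224 with both transgenes. The fall with both transgenes was to 67.5% of WT (log2 change -0.57, SE 0.14, edgeR adjusted p = 0.0325). Eif5a2, the second eIF5A gene, ranged from 899 to 1114 with overlapping groups.

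All 7 genes grouped by symbol as elongation factors had both ACreb3l2/AXBP1 libraries below both WT libraries, against 28.7% of all genes. Of these 7, 1 was called, where 10.1% of all genes were. Eef1b2 (chr1:63176825-63180486, + strand) had 10615 and 11210 normalized counts in the WT pair, against 8115 and 8064 with ACreb3l2, 10003 and 10634 with AXBP1 and 8563 and 7875 with both transgenes. On this scale both groups that carried ACreb3l2 lay below WT and AXBP1, while AXBP1 overlapped WT. In FPKM AXBP1 was also below WT, at 385 and 407 against 477 and 475. The groups with ACreb3l2 were lower still, at 345 to 376 FPKM. Its change with ACreb3l2 was -0.43 (SE 0.08, edgeR adjusted p = 0.0244). With both transgenes it was -0.41 (SE 0.08, edgeR adjusted p = 0.0179). It was the 1 member called in ACreb3l2, and this call was lost without WT replicate 2, either ACreb3l2 library or either AXBP1 library (edgeR adjusted p of 0.132, 0.122, 0.150, 0.0658 and 0.0653), with log2 changes from -0.43 to -0.39. An exon of the opposite-strand gene Ndufs1 overlaps it. Compared directly with AXBP1, its change was -0.35 in ACreb3l2 and -0.33 in ACreb3l2/AXBP1, with edgeR adjusted p of 0.123 and 0.156.

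The abundant elongation factors moved less. Eef1a1 had 192939 and 210261 normalized counts in WT and 183408 and 179808 in ACreb3l2/AXBP1 (log2 change -0.15, SE 0.12, edgeR adjusted p = 0.409), and its change ran from -0.21 to 0.01 over the alternatives. Of its 50-base stretches 60.6% occur in other genes. Eef2 had 95335 and 112569 in WT and 89483 and 86463 with both transgenes (log2 change -0.24, edgeR adjusted p = 0.196). Eef1a2, the eEF1A gene of neurons and muscle, had 12699 and 14292 in WT, 12273 and 10121 in ACreb3l2/AXBP1 and a log2 change of -0.27 (edgeR adjusted p = 0.159). The ratio of Eef1b2 to Eef1a1 raw counts within a library was 0.0550 and 0.0533 in the WT pair, against 0.0470 and 0.0457 with ACreb3l2, 0.0509 and 0.0504 with AXBP1 and 0.0467 and 0.0438 with both transgenes. That pair was also outside the fixed related pairs.

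Among the 3 genes whose products modify elongation factors none was called. Eef1akmt1, a methyltransferase of eEF1A, had 718 and 768 normalized counts in WT and 665 and 581 in ACreb3l2/AXBP1. Eef2kmt, which methylates eEF2, had 775 and 765 in WT and 547 and 665 in ACreb3l2 (log2 change -0.35, edgeR adjusted p = 0.142).

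Related genes parted within the same libraries, as a description chosen by gene pair and not tested. Such a ratio restates the changes of the genes in it. Eif1a with Eif1ax and Eif4g1 with Eif4g3 were not among the fixed related pairs. The raw count ratio of Eif4a1 to Eif4a2 was 0.471 and 0.570 in WT and was lower in 6 of 6 transgenic libraries, with 0.400 and 0.248 in ACreb3l2/AXBP1. Eif4a2 itself had 22649 and 20151 normalized counts in WT and 21848 and 25950 in ACreb3l2/AXBP1 (log2 change 0.16, from -0.05 to 0.32 over the alternatives, edgeR adjusted p = 0.335). Replicate 2 of that group thus held the lowest Eif4a1 and the highest Eif4a2 of all libraries.

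The ratio of Eif1a to Eif1ax, the X-linked eIF1A gene, was 1.39 in both WT libraries, 1.18 and 1.15 with ACreb3l2, 1.01 and 1.11 with AXBP1 and 1.01 and 0.758 with both transgenes. For Eif5a to Eif5a2 it was 7.64 and 10.5 in WT and 7.14 and 4.77 in ACreb3l2/AXBP1. For Eif4g1 to Eif4g3 it was 6.13 and 5.72 in WT and 4.70 and 4.16 with both transgenes. Eif1 to Eif1b gave 0.742 and 1.12 in WT against 0.618 and 0.752, which overlapped. Eef1a1 to Eef1a2 gave 15.2 and 14.7 in WT against 14.9 and 17.8, which overlapped as well.

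**Figure D4:**
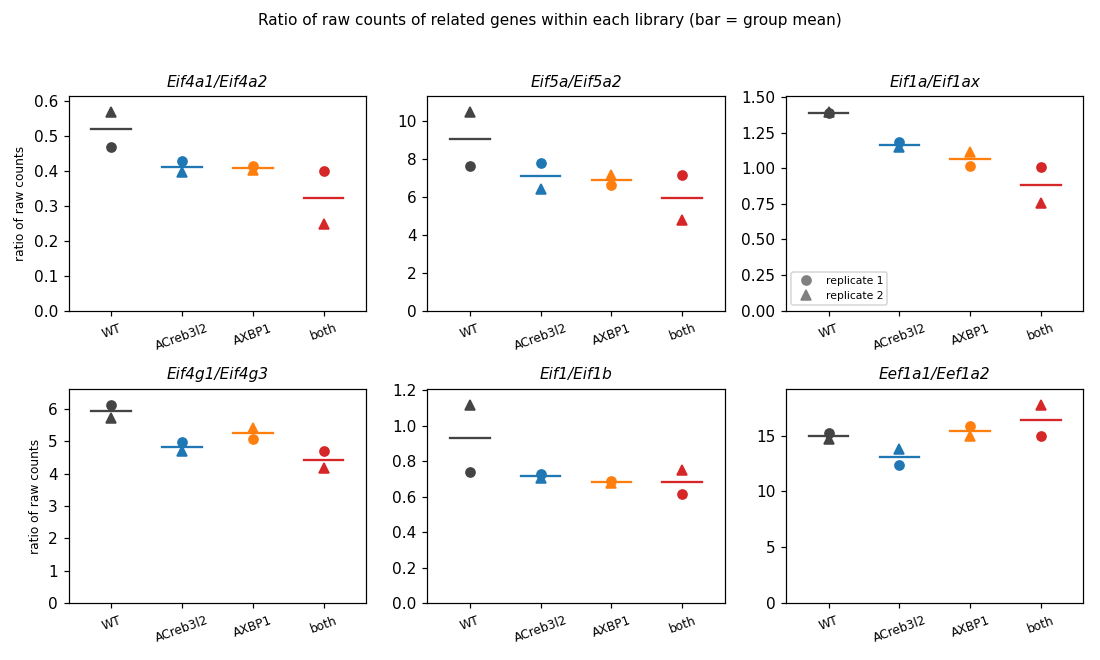
Ratio of raw counts between related translation factor genes within each library, by group, with bars at group means and axes from 0. For Eif4a1/Eif4a2, Eif1a/Eif1ax and Eif4g1/Eif4g3 all transgenic libraries lie below both WT libraries, while Eef1a1/Eef1a2 does not separate both transgenes from WT.

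Promoter sequence was examined because bZIP factors of this class bind elements built around ACGT. RefSeq (GRCm38.p6) gave promoter windows for 47 members, 9 of them among the 12 called in ACreb3l2/AXBP1, and the 250 bases before each annotated start were searched. Shown here are stretches of these windows outside annotated exons, with ACGT in capitals, for 3 called genes, for the Eif4a2 relative of Eif4a1, and for Eef2 and Eif5a2, which were not called. The stretches, written 5′ to 3′ on the strand of the gene, are Eif4a1 at chr11:69672424-69672543 (-), Eif4g1 at chr16:20672603-20672722 (+), Eif2b5 at chr16:20498697-20498816 (+), Eif4a2 at chr16:23107324-23107443 (+), Eef2 at chr10:81176511-81176630 (+) and Eif5a2 at chr3:28781156-28781275 (+).
Eif4a1: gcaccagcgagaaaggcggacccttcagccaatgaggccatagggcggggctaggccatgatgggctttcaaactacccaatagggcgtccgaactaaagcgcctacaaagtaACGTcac
Eif4g1: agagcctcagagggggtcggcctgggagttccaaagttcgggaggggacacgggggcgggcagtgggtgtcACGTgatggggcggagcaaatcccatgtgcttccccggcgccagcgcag
Eif2b5: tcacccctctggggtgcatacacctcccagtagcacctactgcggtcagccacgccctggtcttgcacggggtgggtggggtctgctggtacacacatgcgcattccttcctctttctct
Eif4a2: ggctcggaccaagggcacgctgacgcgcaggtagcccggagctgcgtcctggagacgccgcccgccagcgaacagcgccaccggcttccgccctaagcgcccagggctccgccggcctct
Eef2: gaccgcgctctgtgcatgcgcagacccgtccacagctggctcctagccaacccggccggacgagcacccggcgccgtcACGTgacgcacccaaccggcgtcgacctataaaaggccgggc
Eif5a2: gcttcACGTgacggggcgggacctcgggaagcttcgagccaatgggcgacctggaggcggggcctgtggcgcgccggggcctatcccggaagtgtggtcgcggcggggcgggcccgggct

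ACGT was present in the window of 27 of 47 members (57.4%), against 29.6% of all 27025 genes with a window and 38.5% of the 11169 tested genes with one. Windows of members were richer in G and C, with a median of 61.6% against 52.4% over all windows and 59.6% over those of tested genes. It was found in 4 of the 9 called members with a window (Eif3g, Eif4a1, Eif4g1 and Eif5a) and in 23 of the 38 others. In Eif4a1 an ACGT began 7 bases before the start, in Eif4g1 53 bases and in Eef2 42 bases before it. The longer forms TGACGT and CCACGT, searched on both strands and each containing ACGT, were present in 8 (17.0%) and 9 (19.1%) members, against 7.29% and 7.84% of all genes and 11.2% and 10.9% of tested genes. TGACGTGG, which contains both the ACGT and the TGACGT letters, was in 1 member, Eif3a, and in 0.603% of all genes and 0.904% of tested genes. A start with C followed by 4 pyrimidines, as in mRNAs with a terminal oligopyrimidine tract, was annotated for 3 members (6.38%), against 3.01% of all genes and 3.06% of tested genes. These were Eif2s3x, Eif3f and Eif2c5, which was not tested. Eef1a1, Eef1b2 and Eef2 had no such start. Only the annotated first base was read, so a tract that begins at another base would be missed. A match is a description of letters and not a bound site.

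Further genes of translation were taken from fixed lists. Over 6 lists of 48 further translation genes, 7 fell and none rose in ACreb3l2/AXBP1 and 3 fell in ACreb3l2, where 10.1% and 3.04% of all genes were called. These counts became 5 and 2 with a replicate block (7.14% and 2.06% of all genes). They were 7 and 1 on FPKM with a pseudocount of 1 (6.21% and 1.47%), and 2 and 0 on FPKM without a filter (1.21% and 0.429%). No filter on low counts gave 10 and 6 (10.9% and 4.92%), and DESeq2 9 and 5 (13.4% and 4.85%). In AXBP1 edgeR called none (0.0% of all genes) and DESeq2 1 (0.513% of all genes), and 8 of the 48 had an unadjusted p under 0.05 (9.97% of all genes). Their median log2 change with both transgenes was -0.10. Without ACreb3l2/AXBP1 replicate 2 the count was 1 (1.39% of all genes), and without WT replicate 2 it was 2 (2.26% of all genes). The 3 calls in ACreb3l2, Pelo, Pabpc4 and Eif2ak3, became 0 without WT replicate 2 (1.02% of all genes) or ACreb3l2 replicate 1 (1.21%), and 1 without ACreb3l2 replicate 2 (0.973%), AXBP1 replicate 1 (1.75%) or AXBP1 replicate 2 (1.77%).

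In the list of 6 termination, rescue and recycling genes, Pelo and Hbs1l, partners in releasing stalled ribosomes, fell in ACreb3l2/AXBP1. Pelo had 678 and 977 normalized counts in the WT pair, against 491 and 460 with ACreb3l2, 602 and 614 with AXBP1 and 479 and 377 with both transgenes (log2 change -0.95, edgeR adjusted p = 0.0128). It also fell in ACreb3l2 (log2 change -0.80, edgeR adjusted p = 0.0425). That call was lost by library size alone (edgeR adjusted p = 0.0543), with the replicate block (0.0737) and in every FPKM setting (limma adjusted p from 0.0827 to 0.215). Hbs1l had 2369 and 2371 in WT and 1929 and 1704 with both transgenes (log2 change -0.38, edgeR adjusted p = 0.0264). Of 12 other initiation and mRNA-binding genes, Pabpc4, a poly(A)-binding protein, fell in ACreb3l2 (log2 change -0.67, edgeR adjusted p = 0.0240) and ACreb3l2/AXBP1 (-0.83, edgeR adjusted p = 0.00630). Its call in ACreb3l2 was lost in every FPKM setting (limma adjusted p from 0.143 to 0.309).

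Among the 6 eIF2 alpha kinases and phosphatase subunits, Eif2ak3 (PERK, the kinase of the endoplasmic reticulum) was lower in both groups with the ACreb3l2 transgene. It had 2802 and 3107 normalized counts in the WT pair, against 1909 and 2024 with ACreb3l2, 2859 and 2838 with AXBP1 and 1948 and 1736 with both transgenes. The groups with ACreb3l2 lay below the others, and it was called lower in both against WT (edgeR adjusted p = 0.00794 and 0.00293) and against AXBP1 (edgeR adjusted p = 0.0266 and 0.0151). Both calls against AXBP1 were lost in every FPKM setting (limma adjusted p from 0.138 to 0.244 and from 0.135 to 0.224). For ACreb3l2 against AXBP1 the log2 change was -0.53 in the main fit and -0.33 to -0.31 on FPKM. This call was also lost with the replicate block (edgeR adjusted p = 0.0610). The call in ACreb3l2 against WT was lost without WT replicate 2 (edgeR adjusted p = 0.0581) or ACreb3l2 replicate 1 (0.0699). That in ACreb3l2 against AXBP1 was lost without any single library of these 2 groups (edgeR adjusted p from 0.0990 to 0.279), and that in ACreb3l2/AXBP1 against AXBP1 without either AXBP1 library or ACreb3l2/AXBP1 replicate 2 (0.167 to 0.180). Ppp1r15a (GADD34), which directs a phosphatase to eIF2 alpha, had 1970 and 2344 in WT and 1289 and 986 with both transgenes (log2 change -0.92, edgeR adjusted p = 0.00914).

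Dohh, 1 of 9 genes for hypusine and diphthamide synthesis and selenocysteine elongation, was called. It completes the hypusine of eIF5A and had 1654 and 1854 in WT and 1450 and 1197 in ACreb3l2/AXBP1 (log2 change -0.41, edgeR adjusted p = 0.0428). Tsfm, a mitochondrial elongation factor, was the 1 of 8 mitochondrial genes called, at 792 and 841 in WT and 646 and 619 with both transgenes (log2 change -0.37, edgeR adjusted p = 0.0374). None of the 7 mTOR, S6 and MNK kinase genes was called by edgeR in any comparison with WT, and with both transgenes 1 had an unadjusted p under 0.05. Among them the lowest adjusted p were those of Rptor (log2 change -0.19, edgeR adjusted p = 0.167) and Rps6kb2 (-0.28, edgeR adjusted p = 0.208) in ACreb3l2/AXBP1.

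Direct comparisons of the transgenic groups called no member by edgeR. In ACreb3l2 against AXBP1, where 0.719% of all genes were called, 39 of 59 members were below 0 (49.2% of all genes) with a median of -0.05, which turned to 0.13, 0.14 and 0.13 in the FPKM settings. The median of all genes moved as well. Relative to it the members stood at -0.052 in the main fit and at -0.025, -0.049 and 0.070 in those settings. Of these members 3 had an unadjusted p under 0.05 (9.49% of all genes), and DESeq2 called 1, Eef1b2 (1.69% of all genes). In ACreb3l2/AXBP1 against AXBP1, where 0.623% of genes were called, 43 members were below 0 (50.0% of all genes) with a median of -0.08, which turned to 0.053 to 0.054 on FPKM and 0.021 by library size alone. Relative to the median of all genes the members stood at -0.079 in the main fit and -0.080 by library size alone. On FPKM they stood at -0.0505 and -0.069 with a filter and 0.022 without. An unadjusted p under 0.05 was found for 5 (11.1% of all genes), and DESeq2 called 1, again Eef1b2 (1.82% of all genes). In ACreb3l2/AXBP1 against ACreb3l2 edgeR called no gene (0.0%), and 35 members were below 0 (49.9% of all genes) with a median of -0.02, which turned to 0.0645 by library size alone and 0.0092 without ACreb3l2/AXBP1 replicate 2. Relative to the median of all genes the members stood at -0.019 in the main fit, -0.022 by library size alone and 0.013 without that library. In the main fit of this comparison 1 member had an unadjusted p under 0.05 (7.14% of all genes), and DESeq2 called no member. The interaction had no edgeR call among all genes (0.0%). Its median was 0.10 over the members and 0.00 over all genes, 13 members were below 0 (49.6% of all genes), 3 had an unadjusted p under 0.05 (2.48% of all genes), and DESeq2 called none.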

How the data were processed

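RNA-seq was done on total RNA of 8 pools of 5 lobes. The labels give ribosomal depletion, while the methods of the study name a stranded mRNA kit, and which was used is not settled here. Per the study's methods the authors used Trimmomatic for trimming, Tophat for alignment (mm10) and HTSeq-count for counting, and the deposited raw counts are not normalized. A software list printed with the study also names STAR and cufflinks, the annotation release and the strand setting of the counting are not given in the sources used here, and overlapping or near-identical genes can therefore share reads. The deposited FPKM values are those the authors estimated per locus, and loci were summed per gene. Mm10 coordinates and 50-base sharing come from GENCODE M21. The members and gene lists were chosen with earlier results of these data known.

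Genes with a mean normalized count above 20 (15580) were fitted in edgeR 4.0.16 (R 4.3.3) with TMM scaling (factors 0.913 to 1.10) and the quasi-likelihood test, all 8 libraries in 1 model of 4 group means, and p-values were adjusted by Benjamini and Hochberg within a comparison. Normalized counts are counts scaled to the mean effective depth. Standard errors follow from the test statistic. Replicates correlated at 0.989 to 0.994 and were distinct libraries. They are separate pools, so p-values measure the spread between pools of 1 group. With 2 libraries a group no permutation test of a single value can reach 0.05, and none is given. The code of the fit was also run on simulated data, and no result given here rests on that run. Alternatives were DESeq2 1.42.0, limma 3.58.1 on log2(FPKM + pseudocount of 1 or 0.1), other scaling, no filter, a replicate block and leaving out each library. Named genes were those called, the 2 with the highest FPKM per role, the 3 largest changes each way against WT, and fixed related pairs. From the further lists, called genes or the 2 lowest adjusted p were named.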

Additional observations from a re-analysis of the deposited data

How the results depend on the processing

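The direction of the 12 calls in ACreb3l2/AXBP1 was the same under all alternatives. All 12 were also called with median-ratio (RLE) scaling, DESeq2 (14 calls, 13.4% of all genes) and no filter on low counts (15, 10.9%), 11 of them on FPKM with either pseudocount (6.21% and 6.4%) and 10 with a replicate block (7.14%). Scaling by library size alone left 3 (10.6% of all genes), FPKM without a filter 1 (1.21%), and leaving out single libraries gave 0 to 14. For ACreb3l2 the single call became 9 with no filter (4.92% of all genes), 5 with DESeq2 (4.85%), and 0 on FPKM with a pseudocount of 1, of 0.1 and without a filter (1.47%, 1.48% and 0.429%). It became 0 with the replicate block (2.06%) and 0 to 5 without single libraries. Without both WT replicate 2 and ACreb3l2/AXBP1 replicate 2, chosen after the data were seen, the counts were 0 in ACreb3l2 and 0 in ACreb3l2/AXBP1 (1.11% and 0.302% of all genes), with medians of -0.11 and -0.10. No filter gave 3 calls in AXBP1 (2.13% of all genes), 2 in ACreb3l2 against AXBP1 (2.47%) and 1 for the interaction (0.426%). DESeq2 gave 1 in AXBP1 (0.513%), 1 in ACreb3l2 against AXBP1 (1.69%) and 1 in ACreb3l2/AXBP1 against AXBP1 (1.82%).

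Medians depended on scaling, which also moved the median of all genes. Library size alone gave -0.084 for ACreb3l2, -0.035 for AXBP1 and -0.036 for both transgenes, and 0.0645 and 0.021 for ACreb3l2/AXBP1 against ACreb3l2 and AXBP1. Relative to the median of all genes, the members then stood at -0.17, -0.10, -0.21, -0.02 and -0.08 in these comparisons. At this rounding the main fit gave the same distances. On FPKM, which carries no TMM factor, the AXBP1 median was -0.27 with a pseudocount of 1, -0.28 with 0.1 and -0.27 without a filter, where that of all genes was -0.14, -0.16 and -0.04. ACreb3l2 against AXBP1 then gave 0.13, 0.14 and 0.13, and ACreb3l2/AXBP1 against AXBP1 gave 0.053, 0.0535 and 0.054. Relative to the median of all genes these were -0.025, -0.049 and 0.070, and -0.0505, -0.069 and 0.022. Against that median the sign thus turned only without a filter. ACreb3l2/AXBP1 against ACreb3l2 gave -0.072 with a pseudocount of 0.1. Leaving out libraries moved the median between -0.18 and -0.11 for ACreb3l2, between -0.24 and -0.10 for both transgenes, and between -0.081 and 0.013 for both transgenes against ACreb3l2. The cause of these shifts was not tested.

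Deviations of same-numbered libraries correlated at -0.20 to 0.09, and the main fit did not treat the numbers as pairs. Whether libraries shared a batch under other numbers was not tested. The replicate block gave 0 calls in ACreb3l2 and 10 in ACreb3l2/AXBP1. With the ACreb3l2/AXBP1 numbers crossed, added after the data were seen, it gave 2 and 13 (3.81% and 13.2% of all genes). With 2 libraries a group, 1 library sets much of each estimate.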

Other observations

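Of the 7 pseudogenes left out of the members by name, 1 passed the filter on low counts. Eif4a-ps4, a copy of Eif4a1, had 114 and 135 normalized counts in the WT pair, against 74.8 and 80.0 with ACreb3l2, 107 and 102 with AXBP1 and 95.9 and 65.7 with both transgenes. All transgenic libraries lay below both WT libraries, as for Eif4a1. Reads of the parent and the copy cannot be told apart at shared stretches.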
